A study of Mus musculus with 2 samples.

Results

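Mono 2 is a population of 109 cells among the 5451 cells of a single-cell atlas of the mouse aorta. The cells were taken as those that carry the name Mono 2 in the authors' deposited cell annotation, 1 of 10 population names there, and no expression value was used to choose them here. The aortas came from wild-type female C57/BL6 mice that were 12 weeks old and ate a chow diet. Each aorta was taken whole, from the root to the femoral bifurcation, cleared of perivascular fat, dissociated with enzymes and depleted of red cells by lysis, and no cell type was selected. The droplets were processed with 10x Genomics v2 chemistry as 2 libraries, labelled WT1 and WT3, which form 1 group, so no comparison between treatments or genotypes was made. Mono 2 was set against Mono 1, Macro and the mean of the other 9 populations. Mice on a western diet and samples of low depth were not used here.

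Monocytes are circulating myeloid cells that enter tissues through the chemokine receptor CCR2 and can take on macrophage or dendritic cell features there. Conventional dendritic cells present antigen on MHC class II molecules and fall into a cDC1 lineage, marked by XCR1 and CLEC9A, and a cDC2 lineage, for which CD209a is a common marker in the mouse. In the aortic wall these cells lie beside resident macrophages, which express complement C1q, LYVE1 and FOLR2 and take up debris. MHC class II genes are switched on together by the coactivator CIITA, acting through a conserved promoter box whose Y element is bound by the factor NF-Y.

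The data hold unique molecular identifier (UMI) counts, in which each UMI stands for 1 captured RNA molecule, and levels are given as CPM, a gene's UMIs scaled to the same total in every population, in library 1 and library 2, in that order. The 109 Mono 2 cells held 790734 UMIs, with 40 cells and 294464 UMIs in library 1 and 69 cells and 496270 UMIs in library 2. A median Mono 2 cell had 6950 UMIs, against 4261 in Mono 1 (443 cells), 2730 in Macro (167 cells) and 6025 in vascular smooth muscle cells (VSMC, 2159 cells). Mono 2 cells also had the lower mitochondrial share of UMIs, with a median of 2.55% against 3.45% in Mono 1 and 3.81% in Macro. They made up 1.77% of the cells of library 1, with a 95% interval of 1.27 to 2.40% by the exact Clopper-Pearson method, and 2.16% of those of library 2 (1.69 to 2.73%). Of the 3 immune populations together they were 12.9% in library 1 (9.38 to 17.2%, 40 of 310 cells) and 16.9% in library 2 (13.4 to 20.9%, 69 of 409 cells), so the intervals of the libraries overlapped. These intervals cover counting error only. A gene with a UMI in 0 of the 109 cells may still have one in up to 2.75% of such cells. The libraries shared 12 cell barcodes, none of them in Mono 2, and 1 Mono 2 cell was called a doublet.

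The population names may rest on the same counts that are compared here, so that every call of a gene between populations describes agreement between 2 libraries and is no independent test of the names. With 2 libraries, whose separate mice the labels do not spell out, p-values do not measure the spread between mice. They measure the spread of populations between these libraries that is left after a library term in the fit, estimated over all 10 populations. The immune cells were also clustered again on one part of each cell's UMIs. Of the 109 Mono 2 cells, 107 fell into 1 cluster of 113 cells, beside 3 Mono 1 and 3 Macro cells. These are UMIs of the same cells, on which the names may rest, so the overlap is a description and cannot check the names.

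Of 5 genes taken as marks of Mono 2, 4 had their highest mean level of the 10 populations in it, and Plac8 did not. Ccr2, the receptor for the monocyte chemoattractant CCL2, had 435 and 516 CPM in Mono 2, against 25.7 and 30.4 CPM in Mono 1 and 372 and 262 CPM in Macro. Ear2, an eosinophil-associated ribonuclease, had 1097 and 1227 CPM in Mono 2, against 0 and 16.0 CPM in Mono 1 and 8.37 and 0 CPM in Macro. Napsa, the aspartic protease napsin A, had 397 and 405 CPM in Mono 2, against 1.43 and 0 CPM in Mono 1 and 192 and 135 CPM in Macro. In each of these the Mono 2 libraries lay above both libraries of either immune population. H2-Ab1, the beta chain of the MHC class II molecule I-A, was also highest in Mono 2, at 13502 and 12592 CPM, against 3601 and 2726 CPM in Mono 1 and 1305 and 683 CPM in Macro. Plac8, a gene abundant in inflammatory monocytes, had 91.7 and 149 CPM in Mono 2, against 4.29 and 4.80 CPM in Mono 1 and 201 and 159 CPM in Macro. Its Mono 2 level ranked 4th of the 10 populations, and Fibro 2 had the highest mean level, 334 CPM. On the log2 scale Mono 2 exceeded Mono 1 by 4.19 ± 0.22 for Ccr2 (SE, adjusted p = 1.3e-14), 6.99 ± 0.27 for Ear2 (1.13e-18), 4.89 ± 0.41 for Plac8 (8.78e-11) and 2.19 ± 0.25 for H2-Ab1 (5.5e-08). Without library 2 the fitted log2 difference of Ear2 was 13.55, since Mono 1 had 0 Ear2 UMIs in library 1, and no fold follows from that value. Mono 1 held 1 Napsa UMI, so that the CPM ratio of Mono 2 to Mono 1 was 784 (139.7 to 31057) with its counting interval. Against Macro the log2 difference was 0.87 ± 0.19 for Ccr2 (adjusted p = 0.00131), 1.57 ± 0.21 for Napsa (1.57e-06), 4.00 ± 0.28 for H2-Ab1 (1.24e-12) and -0.25 ± 0.26 for Plac8 (0.608), which was not called. The last 400 bases of Ear2 were 97.0% identical to those of Ear1, so the share of Ear2 reads that belong to its copy is uncertain.

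**Figure D1:**
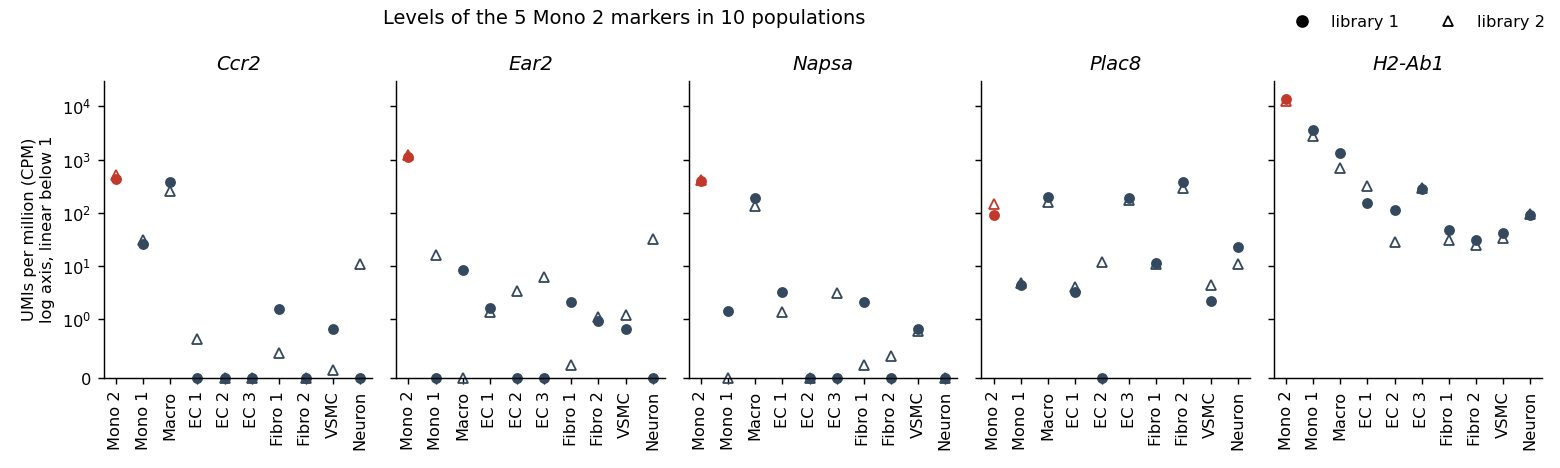
CPM of Ccr2, Ear2, Napsa, Plac8 and H2-Ab1 in the 10 populations (log axis, linear below 1), with Mono 2 in red at the left, a circle for library 1 and a triangle for library 2. Mono 2 is highest for each gene except Plac8, where Fibro 2, Macro and EC 3 lie above it.

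Cell by cell, the markers were unevenly spread within Mono 2. A UMI of H2-Ab1 was found in 104 of 109 Mono 2 cells, of Ccr2 in 93, of Ear2 in 86, of Napsa in 80 and of Plac8 in 7. The same counts among the 443 Mono 1 cells were 321, 21, 6, 1 and 6. Free RNA in the droplets sets a floor for such counts. An H2-Ab1 UMI was found in 95.4% of Mono 2 cells and 18.5% of VSMC, which should lack it, and a Ccr2 UMI in 85.3% of Mono 2 cells and 0.278% of VSMC. The median cell depths were 6950 UMIs in Mono 2 and 6025 in VSMC. With every cell thinned to 1300 UMIs, 50 of 109 Mono 2 cells and 9 of 443 Mono 1 cells kept a Ccr2 UMI. No Mono 2 cell held UMIs of all 5 genes, while 53 held 4, 46 held 3 and 10 held 2. Plac8 was thus a mark of 7 cells, 6.42% of Mono 2, and not of the population.

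The MHC class II genes listed were higher in Mono 2 than in Mono 1 wherever they could be tested. Of 11 MHC class II genes listed, 10 passed the filter on low counts, and all 10 were higher in Mono 2 than in Mono 1, where 8.12% of the 10488 genes tested were called higher. Their median log2 difference was 2.51, against -0.14 over all genes tested. Beside the classical chains, the list holds the peptide-loading factor H2-DM, its modulator H2-O, the invariant chain Cd74 and Ciita. The promoters of 8 of the 11 genes were in the RefSeq table used (GRCm38.p6, mouse chromosome 17 for the genes shown, 250 bases before to 50 after the start), and 4 of these 8 hold the Y-element letters CTGATTGG on either strand, H2-Aa, H2-Eb1, H2-Eb2 and H2-Oa. Of 32851 promoters in the table, 1346 (4.10%) hold the same letters, and a match is a description, not evidence of binding. The promoters of H2-DMa, H2-DMb1, H2-DMb2 and H2-Ob do not hold these letters, although these genes were also higher in Mono 2 than in Mono 1. The promoters of 2 classical chains and of H2-Oa are shown as those of tested genes that hold the letters, with the motif in capitals. H2-Aa lies at chr17:34287774-34288073 on the minus strand, H2-Eb1 at chr17:34305617-34305916 on the plus strand and H2-Oa at chr17:34092129-34092428 on the plus strand.
H2-Aa: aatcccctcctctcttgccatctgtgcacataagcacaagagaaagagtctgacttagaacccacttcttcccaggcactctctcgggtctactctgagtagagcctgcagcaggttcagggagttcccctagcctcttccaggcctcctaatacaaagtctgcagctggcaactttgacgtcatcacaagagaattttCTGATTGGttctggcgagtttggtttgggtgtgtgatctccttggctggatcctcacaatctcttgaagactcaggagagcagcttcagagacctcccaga
H2-Eb1: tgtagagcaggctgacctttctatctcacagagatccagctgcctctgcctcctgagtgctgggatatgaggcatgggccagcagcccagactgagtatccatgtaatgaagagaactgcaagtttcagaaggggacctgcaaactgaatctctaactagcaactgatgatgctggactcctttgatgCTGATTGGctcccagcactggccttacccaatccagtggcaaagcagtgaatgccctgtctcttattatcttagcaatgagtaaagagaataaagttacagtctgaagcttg
H2-Oa: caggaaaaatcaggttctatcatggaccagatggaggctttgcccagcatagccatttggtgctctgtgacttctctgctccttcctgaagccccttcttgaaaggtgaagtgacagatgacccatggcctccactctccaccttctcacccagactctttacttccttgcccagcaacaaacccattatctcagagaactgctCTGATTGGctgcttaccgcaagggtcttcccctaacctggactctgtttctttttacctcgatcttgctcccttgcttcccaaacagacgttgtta

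The motif began 51 bases before the start of H2-Aa, 62 before that of H2-Eb1 and 46 before that of H2-Oa. H2-Aa, the I-A alpha chain, had 10246 and 10758 CPM in Mono 2, against 3380.4 and 2788 CPM in Mono 1, a log2 difference of 1.91 ± 0.25 (adjusted p = 5.6e-07). Cd74 had 36806 and 34344 CPM in Mono 2, against 11764 and 8931 CPM in Mono 1 (1.93 ± 0.28, adjusted p = 3.48e-06). The Mono 2 libraries were the higher ones for both genes. The log2 differences of the classical chains H2-Ab1, H2-Aa and H2-Eb1 were 1.91 to 2.19, and those of the H2-DM chains 2.56 to 6.73. H2-DMb2, a beta chain of H2-DM, had 295 and 316 CPM in Mono 2, against 4.29 and 2.40 CPM in Mono 1 (6.73 ± 0.37, adjusted p = 3.44e-14). H2-Oa had 64.5 and 121 CPM in Mono 2, against 1.43 and 0 CPM in Mono 1, where it rested on 1 UMI, a ratio of 195 (34.0 to 7788). H2-Ob, its partner chain, differed by 3.95 ± 0.53 on the log2 scale (adjusted p = 1.91e-06). Ciita was detected in few cells, with 31 UMIs in Mono 2 and 15 in Mono 1, and differed by 2.47 ± 0.65 (adjusted p = 0.00668). H2-Eb2, with 3 UMIs in Mono 2, was not tested.

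As a share of each cell's UMIs, the 11 genes together took a median of 7.54% in library 1 and 6.04% in library 2 of Mono 2, against 0.865% and 0.510% in Mono 1 and 0.0504% and 0.0345% in Macro. In VSMC the medians were 0.0132% and 0.0097%. At least 3% of UMIs were MHC class II in 95 of 109 Mono 2 cells (87.2%), 107 of 443 Mono 1 cells (24.2%) and 38 of 167 Macro cells (22.8%). High MHC class II expression was therefore the rule in Mono 2 and was found in a minority of the cells of the other immune populations.

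Genes of the cDC1 lineage were higher in Mono 2 than in Mono 1. Of 9 cDC1 genes, 8 were tested and all 8 were higher in Mono 2, with a median log2 difference of 2.71. Naaa, a lipid amidase, had 543 and 393 CPM in Mono 2, against 87.2 and 68.0 CPM in Mono 1 (2.72 ± 0.18, adjusted p = 4.39e-13). Irf8, a transcription factor that the cDC1 lineage requires, had 404 and 155 CPM in Mono 2, against 70.1 and 66.4 CPM in Mono 1 (1.99 ± 0.21, adjusted p = 1.6e-08), and Batf3, its partner in that lineage, had 177 and 169 CPM against 34.3 and 28.8 CPM (2.60 ± 0.31, adjusted p = 2.71e-07). The libraries of the 2 populations did not overlap for any of these 3 genes. Cadm1, an adhesion molecule, differed by 3.20 ± 0.40 (adjusted p = 2.52e-07). The lineage receptors themselves were sparse. Xcr1, the receptor for XCL1, had 35 UMIs in 10 Mono 2 cells and 1 UMI in Mono 1, a CPM ratio of 86.3 (14.5 to 3504). Clec9a, a receptor for dead cells, had 22 UMIs in 11 Mono 2 cells and 2 in Mono 1, a ratio of 27.1 (6.67 to 238). With DESeq2 neither was called (adjusted p = 0.606 and 0.508), and the number of cDC1 genes called higher was 5 with DESeq2 and 3 with thinned cells.

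The cDC2 list was divided. Of its 10 genes, 9 were tested, of which 5 were higher and 2 lower in Mono 2 than in Mono 1, where 9.01% of all genes tested were called lower. Cd209a, a C-type lectin, had 486 and 441 CPM in Mono 2, against 44.3 and 59.2 CPM in Mono 1 (3.23 ± 0.18, adjusted p = 2.75e-14). Tnip3, an inhibitor of NF-kB signalling, had 132 and 153 CPM in Mono 2, against 5.72 and 1.60 CPM in Mono 1 (5.63 ± 0.52, adjusted p = 6.2e-09). Both genes were higher in each Mono 2 library than in either Mono 1 library. Flt3, the cytokine receptor on which dendritic cell development depends, had 64.5 and 64.5 CPM in Mono 2 and rested on 1 UMI in Mono 1, a ratio of 126 (21.6 to 5062), and Klrd1, the lectin CD94, gave a ratio of 133 (22.9 to 5354) on the same count. With DESeq2 the adjusted p of Flt3 was 0.064. Itgax, the integrin CD11c, had 98.5 and 60.5 CPM in Mono 2, against 1.43 and 8.00 CPM in Mono 1 (3.89 ± 0.62, adjusted p = 3.78e-05). Its log2 difference was 6.14 without library 2, and its adjusted p with DESeq2 was 0.779. The lectins Mgl2 and Clec10a, which macrophages share with cDC2, were the members that were lower in Mono 2. Mgl2 had 557 and 554 CPM in Mono 2, against 1184 and 947 CPM in Mono 1 (-0.78 ± 0.13, adjusted p = 5.39e-05), and Clec10a differed by -0.61 ± 0.16 (0.00803). The factor Zbtb46, a mark of conventional dendritic cells, had 7 UMIs in Mono 2 and 18 in Mono 1 and did not pass the test (log2 difference 0.07 ± 0.68, adjusted p = 0.979). Under DESeq2 and with thinned cells, 3 members of the list were called higher. The lower count was 1 with DESeq2, without the library term and with the split UMIs. Of the dendritic cells' migratory genes, Ccr7 alone was called, on 12 UMIs from 2 cells of library 2, and DESeq2 did not call it (adjusted p = 0.638).

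Several monocyte genes were higher in Mono 2 than in Mono 1, most of them on small numbers of UMIs. Of 11 genes of classical monocytes, 10 were tested and 7 were higher, and of 12 genes of nonclassical monocytes, 8 were tested and 5 were higher, with none lower in either list. The first count was 4 with DESeq2, 4 without the library term and 3 with thinned cells. Ace, 1 of the 5 nonclassical genes called higher, differed in opposite directions in the libraries. Its log2 difference was -0.20 without library 2 and 1.83 without library 1. Ifitm6, an interferon-induced membrane protein of monocytes, had 177 and 157 CPM in Mono 2, against 27.2 and 36.0 CPM in Mono 1 (2.45 ± 0.40, adjusted p = 3.57e-05). Ly6c2, the antigen that defines classical monocytes, had 4 UMIs in 3 Mono 2 cells and 0 in Mono 1, and its adjusted p was 0.0481 and lay above the threshold without the library term (0.107) and with thinned cells (0.231). The near-identical end of its neighbour Ly6c1 (98.2%) leaves even these UMIs uncertain. Chil3, a chitinase-like protein of classical monocytes, had 28 UMIs in 3 Mono 2 cells and 0 in Mono 1, at least 23.0-fold higher against a floor of 3 UMIs over Mono 1. Its adjusted p was 0.0003, and 0.513 with DESeq2. Of these UMIs, 2 of Ly6c2 and 4 of Chil3 came from 1 cell of library 1 that also held 577 S100a8 UMIs, a gene of the neutrophil list. Itgal, the integrin LFA-1 alpha chain that nonclassical monocytes carry, had 32 UMIs in 18 Mono 2 cells and 2 in Mono 1 (ratio 39.4 (10.1 to 339.7)). Gngt2, a G protein subunit, had 37.4 and 131 CPM in Mono 2, against 11.4 and 8.00 CPM in Mono 1 (3.47 ± 0.43, adjusted p = 3.5e-07), and its log2 difference was 1.83 without library 2. Cx3cr1, the fractalkine receptor of nonclassical monocytes, had 10.2 and 20.2 CPM in Mono 2, against 40.0 and 15.2 CPM in Mono 1, and was not called (-0.46 ± 0.64, adjusted p = 0.721). Lyz2, the lysozyme of all these myeloid cells, had 13319 and 7951 CPM in Mono 2, against 15943 and 14007 CPM in Mono 1, and was not called (-0.45 ± 0.37, adjusted p = 0.473).

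Genes of resident macrophages were lower throughout. All 19 genes of that list were tested, and all 19 were lower in Mono 2 than in Mono 1, with a median log2 difference of -3.67. Their levels in Mono 1 were high, although its name is that of a monocyte. Pf4, the chemokine CXCL4, had 20.4 and 117 CPM in Mono 2, against 4923 and 5195 CPM in Mono 1 (-5.95 ± 0.31, adjusted p = 1.55e-15). C1qa, a chain of complement C1q, had 387 and 685 CPM in Mono 2, against 7996 and 7301 CPM in Mono 1 (-3.67 ± 0.23, adjusted p = 1.49e-13). Lyve1, the hyaluronan receptor of perivascular macrophages, had 6.79 and 6.05 CPM in Mono 2, against 1238 and 1334 CPM in Mono 1 (-7.51 ± 0.42, adjusted p = 1.37e-14). The libraries of Mono 2 lay far below those of Mono 1 for each gene. Folr2, a folate receptor, had 1 UMI in Mono 2 and 2597 in Mono 1, so that Mono 1 was higher by a CPM ratio of 1054 (189 to 41629). Maf, a transcription factor of resident macrophages, had 7 UMIs in Mono 2 and 2512 in Mono 1 (-7.03 ± 0.42, adjusted p = 2.48e-14). Csf1r, the receptor for the macrophage growth factor CSF1, had 129 and 161 CPM in Mono 2, against 1297 and 1223 CPM in Mono 1 (-2.95 ± 0.17, adjusted p = 1.26e-14). Cd68, a lysosomal glycoprotein, had the smallest difference of the 19 (-1.17 ± 0.16, adjusted p = 1.32e-06).

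Most of the leukocyte adhesion genes listed were higher in Mono 2 than in Mono 1. Of 12 leukocyte adhesion genes, all were tested and 9 were higher in Mono 2 than in Mono 1, with none lower (median log2 difference 2.13, and 4 higher with thinned cells). Against Macro, 6 of the 12 were higher and 2 were lower. Cd52, a surface glycopeptide of leukocytes, had 3094 and 2632 CPM in Mono 2, against 309 and 181 CPM in Mono 1 (3.71 ± 0.24, adjusted p = 4.8e-13). Itgb7, the integrin beta chain that pairs with alpha 4 and alpha E, had 159.6 and 185 CPM in Mono 2, against 2.86 and 4.80 CPM in Mono 1 (5.51 ± 0.40, adjusted p = 8.13e-12). Cd44, a hyaluronan receptor, differed by 2.27 ± 0.23 (adjusted p = 3.45e-09). Both libraries of Mono 2 were higher than those of Mono 1 for all 3 genes. In Macro the mean level of Itgb7 was 288 CPM, and it was not called between Mono 2 and Macro (-0.40 ± 0.23, adjusted p = 0.31). Of 12 chemokine receptors, 9 were tested, of which 5 were higher, with Ccr2 among them, and 1 was lower. The count of those higher was 3 with DESeq2, 2 after the UMIs were split and 1 with thinned cells. The lower one was C5ar1, the receptor for complement C5a, with 20.4 and 14.1 CPM in Mono 2, against 725 and 649.7 CPM in Mono 1 (-5.23 ± 0.25, adjusted p = 1.15e-15). Of 11 S100 and annexin genes, 9 were higher and 1, Lgals1, was lower. Of the 9, S100a8 and S100a9 came from 1 cell, which held 577 of 580 S100a8 and 469 of 471 S100a9 UMIs. S100a6, a calcium-binding protein, had 2211 and 2478 CPM in Mono 2, against 546 and 898 CPM in Mono 1 (1.83 ± 0.18, adjusted p = 2.56e-09), and Lgals3, galectin-3, had 1355 and 1049.8 CPM against 154 and 238 CPM (2.69 ± 0.19, adjusted p = 2.1e-12). Lgals1, galectin-1, had 588 and 530.0 CPM in Mono 2, against 1556 and 1659 CPM in Mono 1 (-1.40 ± 0.21, adjusted p = 8.26e-06).

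The myeloid chemokines and microbe sensors that were called against Mono 1 were all lower in Mono 2. Of 17 myeloid chemokines, 15 were tested, of which 9 were lower in Mono 2 than in Mono 1 and none higher (median log2 difference -3.25). Ccl17, a ligand of CCR4 that did not pass the filter, lay the other way, with 33 UMIs in Mono 2 and 3 in Mono 1, a ratio of 27.1 (8.51 to 138). Ccl8, a ligand of several CC receptors, had 0 UMIs in Mono 2 and 593 in Mono 1, at least 80.2-fold lower against a floor of 3 UMIs. Ccl24, an eosinophil attractant, had 20.4 and 26.2 CPM in Mono 2, against 666 and 729.7 CPM in Mono 1 (-4.74 ± 0.22, adjusted p = 2.69e-16). Ccl6 and Ccl9 were abundant in both populations and not called. Ccl6 had 2275 and 1818 CPM in Mono 2, against 2151 and 2359.5 CPM in Mono 1 (-0.01 ± 0.17, adjusted p = 0.986). Of 16 pattern recognition genes, 12 were tested and 6 were lower than in Mono 1, with none higher. Against Macro the direction was the reverse, with 7 of the 15 chemokines and 6 of the 12 pattern recognition genes higher and 0 lower. Against the mean of the other 9 populations, 10 and 9 of them were higher and 0 lower. Over all genes tested, 9.01% were called higher against Macro and 18.4% against that mean. Cd14, the lipopolysaccharide co-receptor, had 146 and 94.7 CPM in Mono 2, against 809 and 481 CPM in Mono 1 (-2.28 ± 0.17, adjusted p = 3.73e-12), and Ly96, its partner MD-2, differed by -3.41 ± 0.38 (adjusted p = 3.8e-08). Of 12 lysosomal proteases and related genes, 11 were tested, 6 were lower and only Napsa was higher. Lgmn, the protease legumain, had 105 and 117 CPM in Mono 2, against 992 and 966 CPM in Mono 1 (-3.00 ± 0.21, adjusted p = 9.27e-13), while Ctss, the cathepsin that trims the invariant chain, did not pass the test (0.13 ± 0.21, adjusted p = 0.762).

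Transcription factors and lipid genes were mixed. Of 19 myeloid transcription factors, 18 were tested, with 5 higher and 6 lower in Mono 2 than in Mono 1, and 2 higher with thinned cells. Id2, an inhibitor of DNA binding that dendritic cells need, had 571 and 453 CPM in Mono 2, against 44.3 and 39.2 CPM in Mono 1 (3.73 ± 0.17, adjusted p = 8.63e-17). Its libraries stood clear of those of Mono 1. Of 16 scavenger and lipid genes, 15 were tested, with 4 higher and 7 lower. Apoe, apolipoprotein E, had 519.6 and 542 CPM in Mono 2, against 27169 and 18562 CPM in Mono 1 (-5.30 ± 0.22, adjusted p = 8.41e-18), and Stab1, a scavenger receptor, differed by -5.82 ± 0.32 (adjusted p = 3.71e-15). Lpl, lipoprotein lipase, had 924 and 1235 CPM in Mono 2, against 77.2 and 96.8 CPM in Mono 1 (3.78 ± 0.23, adjusted p = 5.64e-14). Abcg1, a cholesterol exporter, had 33 UMIs in Mono 2 and 10 in Mono 1 (3.14 ± 0.59, adjusted p = 0.000213). Of 14 cytokine receptors, 11 were tested, with 2 higher (1 with DESeq2 and with thinned cells) and 3 lower, and Csf2ra, the alpha chain of the GM-CSF receptor, was one of the higher (1.47 ± 0.17, adjusted p = 1.5e-07).

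**Figure D2:**
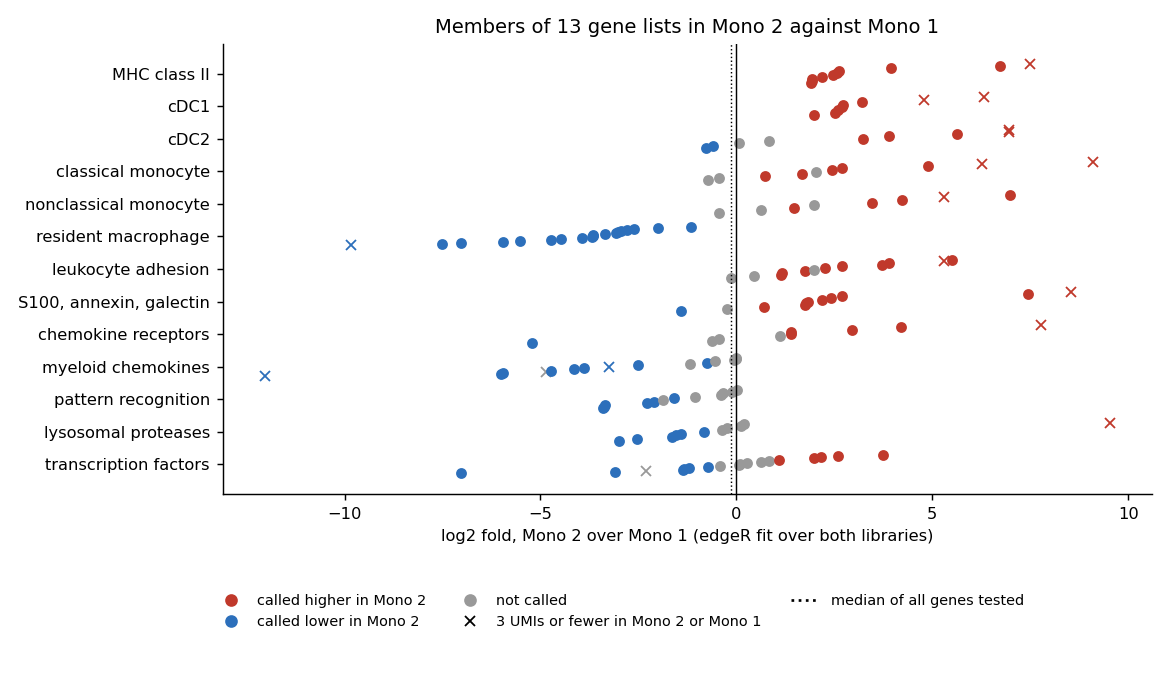
Log2 fold of Mono 2 over Mono 1 for the tested members of 13 gene lists, in red where called higher, in blue where called lower and in grey otherwise, with a cross for genes of at most 3 UMIs in 1 population and a dotted line at the median of all genes. MHC class II and cDC1 members lie to the right of the line and resident macrophage members to its left.

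Over all genes, 852 were higher and 945 lower in Mono 2 than in Mono 1. With RLE scaling 939 were higher and 852 lower, and with DESeq2 854 were higher and 676 lower, so neither direction prevailed under all scalings. The 10 with the largest differences upward, among those that had 50 UMIs or more and that differed the same way in each library, were Upb1, Napsa, H2-Oa, S100a8, Ltb4r1, Ear2, Klrd1, Flt3, Akr1c18 and H2-DMb2. Upb1, an enzyme of pyrimidine breakdown, had 129 and 101 CPM in Mono 2 and 0 UMIs in Mono 1, at least 72.3-fold higher. Ltb4r1, a leukotriene B4 receptor, had 302 and 206 CPM in Mono 2, against 0 and 2.40 CPM in Mono 1, a ratio of 157 (52.9 to 768) on 3 UMIs. Its fitted log2 difference was 11.70 without library 2. Akr1c18, an aldo-keto reductase, gave a ratio of 123 (21.1 to 4964). S100a8 came from 1 cell and is described with that cell. In the downward direction the 10 were Cd209f, Fcna, Ccl8, Ednrb, Npl, Siglech, Folr2, C5ar2, Reps2 and Tnfrsf17. Cd209f, a C-type lectin, was at least 141-fold lower in Mono 2, and Fcna, ficolin A, at least 82.8-fold, with 0 UMIs of either in Mono 2. Siglech, a sialic acid-binding lectin and a marker of plasmacytoid dendritic cells, was also at 0 UMIs, at least 19.9-fold lower. DESeq2 did not call Tnfrsf17 (adjusted p = 0.639). An abundant gene outside that rule, chosen after its values were seen, was Retnla, a resistin-like secreted protein of alternatively activated macrophages, with 15635 and 10204 CPM in Mono 2, against 2562 and 4851 CPM in Mono 1 (2.01 ± 0.26, adjusted p = 5.52e-07). Fn1, fibronectin, chosen in the same way, had 937 and 786 CPM in Mono 2, against 81.5 and 77.6 CPM in Mono 1 (3.57 ± 0.21, adjusted p = 2.42e-14).

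Against Macro the differences were of another kind. The cells labelled Macro did not carry a macrophage profile. Adgre1, Msr1 and Timd4 had 0 UMIs in its 167 cells and C1qa was found in 19. UMIs of the T and NK cell list were found in 3 of 109 Mono 2 cells and 89 of 167 Macro cells, and those of the B cell list in 3 Mono 2 and 52 Macro cells. All 8 tested T and NK genes and all 5 B genes were lower in Mono 2 than in Macro, where 5.74% of genes tested were called lower and 9.01% higher (602 and 945 genes). Of the resident macrophage genes, 11 of 19 were higher in Mono 2 than in Macro and 1 was lower, the reverse of the comparison with Mono 1. Of the MHC class II genes 7 of 10 were higher, of the cDC1 genes 8 of 8 and of the lysosomal proteases 9 of 11. Lyz2 had 13319 and 7951 CPM in Mono 2, against 686 and 124 CPM in Macro (5.13 ± 0.46, adjusted p = 4.19e-10). Ly6c2 went the other way, with 10.2 and 2.02 CPM in Mono 2, against 155 and 414 CPM in Macro (-5.62 ± 0.51, adjusted p = 1.73e-09). This antigen of classical monocytes was thus more abundant in the cells labelled Macro than in Mono 2. The near-identical end of Ly6c1 leaves its UMIs uncertain here too, and which kind of Macro cell held them was not tested. Macro also held genes of the neutrophil and mast cell lists, with a mean of 4731 CPM for S100a8 and 281 CPM for Mcpt4. This mixture of lymphocyte, neutrophil and mast cell genes in Macro moves with every difference from it, and its part in them was not tested.

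Against the mean of the other 9 populations, 1931 genes were higher in Mono 2 (18.4% of those tested) and 1250 lower (11.9%). This mean is taken over fitted log levels, with equal weight for each population. Populations with 0 or few UMIs of a gene thus enlarge the difference. All 10 tested MHC class II genes, all 8 cDC1 genes, 8 of 9 cDC2 genes, 11 of 12 leukocyte adhesion genes and 12 of 19 resident macrophage genes were higher, and 3 of the last were lower. The 10 largest upward by the same rule were Clec4b1, Tnip3, Skint3, Bcl2a1a, Cd209a, Lyz1, Ryr1, Mmp12, Ltb4r1 and Ear2. Clec4b1, a C-type lectin, had 452 and 377 CPM in Mono 2, against 52.9 and 47.2 CPM in Mono 1 and 0 and 0 CPM in Macro. It differed from the mean of the 9 by 10.62 ± 0.30 on the log2 scale (adjusted p = 9.43e-21), but from Mono 1 alone by 3.17 ± 0.20 (2.68e-12). Mmp12, the macrophage elastase, had 289 and 242 CPM in Mono 2, against 4.29 and 17.6 CPM in Mono 1. It differed from the mean of the 9 by 9.19 ± 0.41 (adjusted p = 1.47e-16), but from Mono 1 alone by 4.48 ± 0.39 (1.29e-09). Few Mono 2 cells set its level, as an Mmp12 UMI was found in 6 cells of 1 cluster described below and in 4 others. Lyz1 shares 97.2% of its last 400 bases with Lyz2, and Bcl2a1a 98.5% with Bcl2a1b, so the split of reads within either family is uncertain. The 10 largest downward, Auts2, Fkbp10, Mn1, Tcaf1, Reck, Kcnj8, Tnks1bp1, Tspan12, Perp and Igfbp3, each had 0 UMIs in Mono 2.

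Within Mono 2, a clustering of the 109 cells gave 6 clusters, A to F, of 40, 26, 20, 13, 6 and 4 cells. Their leading genes are the product of the clustering and are given as a description, without a test. Cluster A, 40 cells (18 from library 1 and 22 from library 2), was led by Retnla, Lyz1, Lpl, Fn1 and Ccl6. Retnla stood at 29525 CPM in A, against 399 in B, 11916 in C, 33.8 in D, 33.8 in E and 0 in F, and a Retnla UMI was found in all 40 cells. No list led it, and it keeps its letter. Cluster B, 26 cells (8 and 18), was cDC2-like, with Cd209a, Mgl2 and Clec10a among its top 10 genes. Cd209a stood at 1372 CPM in B and was found in 22 of its 26 cells, against 662 CPM in C, 33.7 in A and 0 in D, E and F. Cluster C, 20 cells (5 and 15), was led by Hspa1a, Nfkbia, Junb, Zfp36, Atf3 and Jun, heat shock, NF-kB feedback and immediate early genes, and it stays unnamed. It held Retnla at 11916 CPM and Cd209a at 662 CPM, but these came from different cells of C. Its cells with at least 10 Retnla UMIs held at most 1 Cd209a UMI. Its cells with at least 2 Cd209a UMIs held at most 1 Retnla UMI.

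Cluster D, 13 cells (7 and 6), was cDC1-like. Irf8 stood at 1445 CPM in D, against 287 in E and 133 in F, and was found in all 13 cells, while Xcr1 and Clec9a were each found in 9 of them. Of the 10 Mono 2 cells with an Xcr1 UMI, 9 were thus in D. D took 7 of 40 Mono 2 cells in library 1 and 6 of 69 in library 2, and the level of Irf8 over Mono 2 was likewise higher in library 1, at 404 and 155 CPM, but the part of the cell numbers in this was not tested. Cluster E, 6 cells (2 and 4), was led by C1qa, C1qb, Mmp12 and C1qc, with C1qa at 4548 CPM. Mmp12 stood at 2959 CPM in E, against 112 CPM in A. Cd207, langerin, was found in all 6 of its cells. Cluster F, 4 cells of library 2, was nonclassical monocyte-like, led by Plac8, Gngt2, Pglyrp1 and Ace, with Itgal among its top 10. Plac8 stood at 4200.3 CPM in F, against 144 in B, where 1 cell held it, and 93.0 in D. At lower resolution the cells formed 4 clusters and at higher resolution 8, so the number of clusters depends on the setting, and the smallest clusters rest on few cells.

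**Figure D3:**
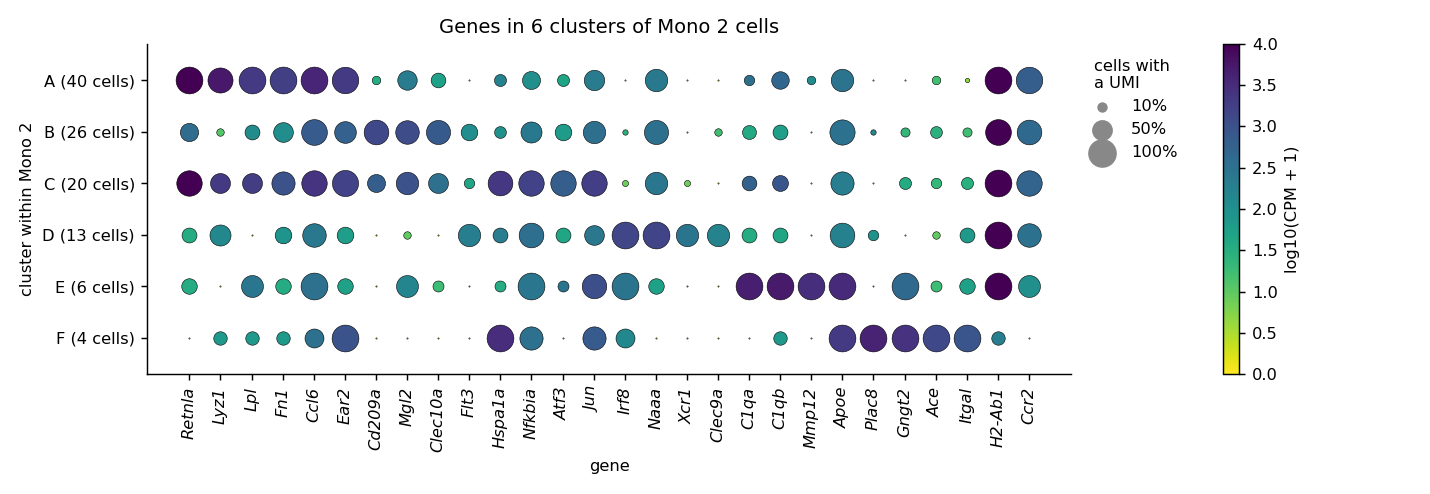
Share of cells with a UMI (dot size) and CPM (colour, log10 of CPM + 1) of 28 genes in the 6 clusters A to F within Mono 2. Retnla and Lyz1 mark A, Cd209a marks B, Irf8, Xcr1 and Clec9a mark D, C1qa and Mmp12 mark E and Plac8 marks F.

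Cutoffs on single genes that lead these clusters, chosen after the values were seen, give the overlap of the genes within cells as a description and are no check of the clusters. At least 10 Retnla UMIs were found in 53 of 109 cells (19 of 40 in library 1 and 34 of 69 in library 2), at least 2 Cd209a UMIs in 31 cells (9 and 22), and at least 2 UMIs of Xcr1 and Clec9a together in 10 cells (6 and 4). Of the cells with at least 10 Retnla UMIs, 4 also had at least 2 Cd209a UMIs, 0 had at least 2 UMIs of Xcr1 and Clec9a together and 3 had at least 10 C1qa UMIs. No cell joined the Cd209a and the Xcr1 and Clec9a sets. Of 9 cells with at least 10 C1qa UMIs, 6 also had at least 10 Mmp12 UMIs. The Retnla cells and the Cd209a cells were found in both libraries.

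MHC class II split a small group off from the rest. The median share of UMIs was 5.03% in A, 9.48% in B, 5.83% in C, 8.07% in D, 9.51% in E and 0.126% in F, where it ran from 0.0337 to 0.302%. Below 1%, a limit set after the values were seen, lay 6 cells, the 4 of cluster F and 2 cells of library 1 that had clustered with B, and the next cell above stood at 1.08%. These 6 cells held 90 of the 101 Plac8 UMIs of Mono 2 and all 28 Chil3 UMIs, while the other 103 cells held 11 Plac8 UMIs in 2 cells and 0 Chil3 UMIs. They also held 43 of 76 Gngt2 UMIs, 44 of 57 Pglyrp1 UMIs, 21 of 34 Ace UMIs, 8 of 9 Cd300e UMIs and 17 of 20 Hp UMIs. Of these, 17 Pglyrp1 UMIs and 13 Hp UMIs came from 1 cell, as did 4 of the 28 Chil3 UMIs. Other genes of the monocyte lists lay mostly in the other 103 cells. The 6 cells held 16 UMIs of Ear2 and the other 103 held 916, and the 6 cells held 26 of 130 Ifitm6 UMIs, 19 of 95 Smpdl3a UMIs, 11 of 115 Nr4a1 UMIs, 2 of 42 Ms4a4c UMIs, 3 of 15 Adgre4 UMIs and 3 of 13 Cx3cr1 UMIs. Most UMIs of Plac8, Chil3, Gngt2, Pglyrp1, Ace, Cd300e and Hp were therefore found outside the MHC class II-rich cells of Mono 2. Most UMIs of Ear2, Ifitm6, Smpdl3a, Nr4a1, Ms4a4c, Adgre4 and Cx3cr1 were not. With 4 UMIs of Ly6c2 in all, the defining antigen of classical monocytes was close to 0 in Mono 2, and the name Mono is used here only as deposited.

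**Figure D4:**
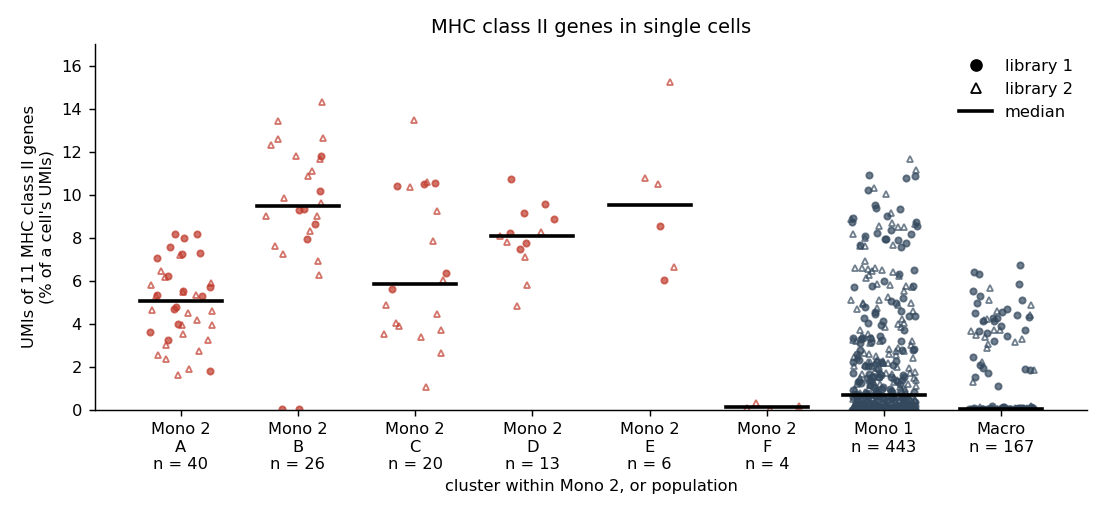
Share of each cell's UMIs in 11 MHC class II genes (percent) in clusters A to F of Mono 2, in Mono 1 and in Macro, with 1 point per cell and a bar at the median. The 4 cells of F lie near 0, with most other Mono 2 cells above 3%.

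Single cells set a few of the differences. One Mono 2 cell of library 1, among the 6 above, held 577 of the 580 S100a8 UMIs of the population and 1238 of its 1254 UMIs of the neutrophil list. Without it and 1 cell rich in fibroblast UMIs, 0 of the neutrophil genes were called higher than in Mono 1, against 4 with them, and the log2 difference of S100a8 was 7.45 ± 0.76 with both libraries and 1.40 without library 1. The cell rich in fibroblast UMIs, of library 2, held 189 of 190 Apod UMIs and 346 of the 667 UMIs of the fibroblast list, and another cell of library 2 held 146 of 147 Ccl5 UMIs. In all, 20 of the 852 genes higher than in Mono 1 had at least 50% of their Mono 2 UMIs in 1 cell. Of the lists of other cell types, those of T and NK, B, mast, smooth muscle, fibroblast and endothelial cells had 0 members called between Mono 2 and Mono 1. Of the 4 haemoglobin genes, 2 were called lower in Mono 2. This count was 4 with no filter, with thinned cells, with only the immune populations and with the split UMIs, and 0 with DESeq2 and without the library term. Haemoglobin UMIs were found in all 109 Mono 2 cells and smooth muscle UMIs in 108, and haemoglobin took 5569 and 1419 CPM in Mono 2, against 12013 and 8164 CPM in Mono 1. The part of free RNA in the differences of low genes was not tested.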

How the data were processed

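Single cells of 2 aorta libraries were sequenced by the authors with 10x Genomics v2 chemistry, and Cell Ranger 2.1 is named in the submitters' processing notes. The genome build is not given in the sources used here. The deposited values are UMI counts per gene and cell, not normalized, for 16971 genes, with the authors' name and library of each cell in a second table. Which library is WT1 and which is WT3 is not stated. The cells held at most 14968 UMIs each and at most 24.9% mitochondrial UMIs.

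Counts were summed per population and library (30588237 UMIs, with 11104066 in library 1 and 19484171 in library 2), and levels were divided by the sum's total. Differences were tested with edgeR 4.0.16 in R 4.3.3, by its quasi-likelihood test with TMM scaling, filterByExpr and terms for population and library, over all 10 populations, and p-values were adjusted by the Benjamini-Hochberg method over the 10488 genes that passed the filter. A gene was called at an adjusted p below 0.05. SE is the log2 fold divided by the square root of F. Doublets were called with Scrublet (scanpy 1.11.5). A floor of 3 UMIs over a population stands for 0. The 109 cells were clustered by the Leiden method (1500 variable genes, 10 components, resolution 0.8).

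The members, lists and tests were chosen with earlier results of these data known. The genes named are the 5 markers, up to 4 tested members of each list with the largest fold against Mono 1, the 10 called genes that differed most upward and the 10 that differed most downward, against Mono 1 and against the mean of the other 9 (at least 50 UMIs, same direction in both libraries), and list members counted by cell. Some genes are not reported here. Other list members and genes were chosen after their values were seen. Alternatives were RLE scaling, DESeq2 1.42.0, no filter, no library term, each library left out, doublets left out, cells thinned to 1300 UMIs, only the immune populations, and sums from one part of the UMIs with clusters from the other. Added after the data were seen were 2 other clustering resolutions and a fit without 2 Mono 2 cells rich in neutrophil or fibroblast UMIs.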

Additional observations from a re-analysis of the deposited data

How the results depend on the processing

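The numbers of genes called in Mono 2 were 1797 against Mono 1, 1547 against Macro and 3181 against the mean of the other 9. With cells thinned to 1300 UMIs they were 635, 660 and 1212, and with clusters from one part of the UMIs and sums from the other 1152, 868 and 2109, where each sum holds fewer UMIs. The other settings kept each within 1.5 times. Thinning moved the median log2 difference of all genes by -0.23, -0.30 and -0.21, and genes called higher were 36.2% of those called against Mono 1 (47.4% before) and 46.7% against Macro (61.1% before). Of the 1797 genes, 1645 could be tested in the split UMIs, and 1070 (65.0%) were called there in the same direction. Among the genes that were named by the rule and called against Mono 1, none changed sign under these settings. With either library left out none changed sign either, but for the 10 largest in each direction the rule itself had required this. Ace, called but not named by the rule, had a log2 difference of -0.20 without library 2 and 1.83 without library 1. Camp, Retnlg and S100a9 had a log2 difference of 0 without library 1, and Ccr7 had 0 without library 2, so these have no direction there. Cx3cr1, which was not called, had a log2 difference of 0.54 without library 1 and -1.83 without library 2. DESeq2 ended 16 calls of named genes, the missing library term 11, thinning 8, the split 5 and RLE scaling 1, and the cause was not tested. The share of Mono 2 was 1.77 to 2.16% of cells and 12.9 to 16.9% of immune cells with either library left out. Each library holds every population and was a term of the fit, and without that term 1426, 1409 and 3136 genes were called. Genes of few UMIs are limited by the depth of the 109 cells.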

Other observations

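Several other gene groups were tested between Mono 2 and Mono 1, where 8.12% of all genes tested were called higher and 9.01% lower. Of 6 NADPH oxidase genes, which make the oxidative burst, 2 were higher in Mono 2 than in Mono 1 and 1 was lower, and all 6 were higher than the mean of the other 9 populations. Against Mono 1, the higher count was 1 without the library term and with thinned cells, and the lower count was 0 with these settings, with DESeq2 and with the split UMIs. Rac2, the GTPase of that complex, had 367 and 300.2 CPM in Mono 2, against 146 and 132 CPM in Mono 1 (1.38 ± 0.16 on the log2 scale, adjusted p = 1.54e-07). Of 12 inflammasome and IL-1 genes, 9 were tested, with 3 higher and 2 lower. The lower count was 1 with RLE scaling, with DESeq2, without the library term and without the 2 cells rich in neutrophil or fibroblast UMIs, and 0 with thinned cells and with the split UMIs. Il1b, which encodes the cytokine IL-1 beta, had 71.3 and 107 CPM in Mono 2, against 15.7 and 8.00 CPM in Mono 1 (3.19 ± 0.47, adjusted p = 7.72e-06).

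Of 12 interferon response genes, 5 were lower in Mono 2 than in Mono 1, against 3 with DESeq2, without the library term and with thinned cells, and 8 with no filter on low counts. Ifi27l2a had 788 and 399 CPM in Mono 2, against 2511 and 2259.5 CPM in Mono 1 (-1.90 ± 0.25, adjusted p = 5.58e-07). Of 6 Fc receptor genes, 3 were lower (5 with thinned cells), among them Fcgrt, the neonatal Fc receptor, with 98.5 and 185 CPM in Mono 2, against 848 and 853 CPM in Mono 1 (-2.40 ± 0.21, adjusted p = 1.88e-10). Of 14 cell cycle genes, 12 were tested and 2 were higher in Mono 2 than in Mono 1, Birc5 and Hmgb2, where 8.12% of all genes tested were higher. Against the mean of the other 9, 11 were higher, where 18.4% of all genes tested were. Against Macro 0 were higher and 3 lower, where 9.01% and 5.74% of all genes tested were. The count of 2 against Mono 1 was 0 with DESeq2, without the library term and with thinned cells, and 1 with the split UMIs. Top2a, a mark of dividing cells, had 25 UMIs in Mono 2 and 32 in Mono 1 and was not called between them (1.09 ± 0.57, adjusted p = 0.221). Birc5, survivin, had 18 UMIs in Mono 2, its log2 difference was 2.30 ± 0.76 with both libraries and 6.24 without library 2, and its adjusted p was 0.0356, and 0.0516 with DESeq2. Of 17 immediate early genes, 1 was higher and 2 were lower than in Mono 1, near the shares over all genes tested (8.12% and 9.01%). Against Macro 9 were higher and 0 lower, where 9.01% of all genes tested were higher and 5.74% lower. Against Mono 1, 6 were lower with no filter and with only the immune populations, 5 with doublets left out, and 4 with thinned cells or the split UMIs. The 1 higher was 2 with no filter and with only the immune populations, and 0 with DESeq2, without the library term, with thinned cells and with the split UMIs.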
